A study of Mus musculus with 2 samples.

Results

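The Mir34 family comprises the microRNA (miRNA) genes Mir34a, Mir34b and Mir34c, which were taken by symbol from 2202 annotated miRNA genes counted in a mouse calf muscle, the gastrocnemius. All 3 members were found in the table, and 2 of them, Mir34a and Mir34c, were detected, which means 10 counts or more in each library. The muscle came from male B6CASTF1/J mice, the F1 hybrid of C57BL/6J and CAST/EiJ, at 10 days of age, with 1 small RNA library from each of 2 biological replicates. The labels number 2 animals under 1 donor entry and name no treatment, so the series has 1 group and no condition in which p53 activity was altered. Responsiveness to p53 was therefore not measured, and the name of the family stands as background.

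Mir34 genes are among the best known miRNA targets of the tumour suppressor p53, a transcription factor that responds to DNA damage and other stress and binds near both Mir34 loci. The mature miRNAs repress transcripts that drive the cell cycle and survival, such as those of cyclins, cyclin-dependent kinases, Bcl2 and Sirt1. Mir34a is the broadly expressed member, while Mir34b and Mir34c, made from a common primary transcript, are best known from multiciliated epithelium and male germ cells. The Mir449 genes, in an intron of Cdc20b, carry the same seed, the short stretch near the 5′ end of a miRNA that pairs with its targets.

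The family lies at 2 loci (mm10, GENCODE M21, 1-based). Mir34a (ENSMUSG00000065493.1) is a hairpin of 102 nt at chr4:150068454-150068555 on the plus strand. Its 3′ end overlaps an exon of Gm37795, an unclassified transcript on the same strand, and the nearest protein-coding gene, Gpr157, begins 18810 bases away. Mir34b (ENSMUSG00000065492.1, chr9:51103562-51103645, 84 nt) and Mir34c (ENSMUSG00000065587.1, chr9:51103034-51103110, 77 nt) lie 451 bases apart on the minus strand, with Mir34b upstream. Both fall in an intron of Btg4, a gene of the opposite strand.

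Mature sequences from RefSeq (GRCm38.p6) are given 5′ to 3′ with the seed, bases 2 to 8, in capitals, because the seed defines the family. All 3 members and 2 of the 3 Mir449 genes matched an entry, and mmu-miR-34c-5p and Mir449b are named here without a sequence. The first set holds the arms with the seed GGCAGUG.
mmu-miR-34a-5p: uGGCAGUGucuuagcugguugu
mmu-miR-34b-5p: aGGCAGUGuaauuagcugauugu
mmu-miR-449a-5p: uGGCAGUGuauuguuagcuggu
mmu-miR-449c-5p: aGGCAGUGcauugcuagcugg
Of 1738 mature mouse sequences in the table, these 4 have that seed. Neither mmu-miR-34c-5p nor an arm of Mir449b is among the 1738, so their seeds could not be counted. The arms mmu-miR-34a-5p and mmu-miR-449a-5p are identical over the first 9 bases and at 15 of 22 positions. The second set holds the 3′ arms of the family.
mmu-miR-34a-3p: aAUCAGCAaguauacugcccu
mmu-miR-34b-3p: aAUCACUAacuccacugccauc
mmu-miR-34c-3p: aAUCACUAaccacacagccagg
The 3′ arms of Mir34b and Mir34c share the seed AUCACUA, which no other sequence in the table has, and are identical over their first 10 bases. They differ at 5 of 22 positions, counted from 1 at the 5′ end with the base of Mir34b first: U11C, C12A, U16A, U21G and C22G. The 3′ arm of Mir34a has the seed AUCAGCA, found in no other entry.

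The deposited counts are per hairpin, so a count of Mir34a or Mir34b can come from either arm. The hairpins of both genes are shown with the arms in capitals to make this visible.
Mir34a hairpin: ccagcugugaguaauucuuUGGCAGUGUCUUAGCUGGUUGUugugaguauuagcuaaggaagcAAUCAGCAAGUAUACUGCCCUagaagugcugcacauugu
Mir34b hairpin: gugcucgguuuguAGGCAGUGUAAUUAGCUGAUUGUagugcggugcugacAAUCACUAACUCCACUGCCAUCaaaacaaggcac
Despite the common seed, the hairpins are distinct at the length of a read. The longest stretch that a member shares with any other annotated miRNA hairpin is 12 nt for Mir34a and 11 nt each for Mir34b and Mir34c, and Mir34b and Mir34c share 11 nt with each other. Each printed mature arm occurred in exactly 1 annotated hairpin. Reads that matched several genomic places are counted for no gene in these tables. Copies outside annotated miRNA genes were not searched.

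The libraries held 3999172 counts assigned to miRNA genes in replicate 1 and 5062714 in replicate 2, which is 41.3% and 39.3% of all reads. Reads that matched several places, 47.0% and 48.0% of all reads, are counted for no gene. Genes with copies elsewhere may thus be undercounted, and all levels, sums and ranks hold among the counted reads only. Levels are given in counts per 1000000 assigned counts (CPM), so that 1 count is worth 0.25 and 0.198 CPM in replicates 1 and 2. Of the listed skeletal muscle miRNAs all 7 had counts, and they summed to 101168 and 88169 CPM in replicates 1 and 2, nearly all from Mir206. The listed neuronal miRNAs, Mir124a and Mir9, were at or near 0, with a summed level of 0.50 and 1.38 CPM and 3 of 6 genes at 0 in both libraries. Intervals are exact at 95% and cover counting error only, since the tables hold no molecular identifiers.

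Mir34a was the leading member, at a moderate level among the miRNA genes counted in this muscle. It had 1331 counts in replicate 1, or 333 CPM (interval 315 to 351). In replicate 2 it had 1196 counts, or 236 CPM (interval 223 to 250). The mean was 285 ± 68 CPM (SD, n = 2), and the higher value belonged to the library with fewer assigned counts. Mir34a ranked 116th and 133rd of the 2202 genes in replicates 1 and 2. Its mean was 2.10 times the median of the 313 detected genes, 135.5 CPM, and 121 of those genes had a higher mean.

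Mir34c was the second member in level and differed less between the libraries than Mir34a. It had 223 counts in replicate 1 and 262 in replicate 2, that is 55.8 CPM (interval 48.7 to 63.6) and 51.8 CPM (interval 45.7 to 58.4). The mean was 53.8 ± 2.8 CPM (SD, n = 2), and the intervals of the libraries overlapped. It ranked 192nd and 196th, below the median of the detected genes.

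Mir34b, the neighbour of Mir34c, was barely counted. It had 5 counts in each library, or 1.25 CPM (interval 0.406 to 2.92) and 0.988 CPM (interval 0.321 to 2.31). These counts exceed the 3 that a count of 0 allows, or 0.75 and 0.593 CPM in replicates 1 and 2. The mean was 1.12 ± 0.19 CPM (SD, n = 2), at ranks 355 and 377 (equal counts share a rank).

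**Figure D1:**
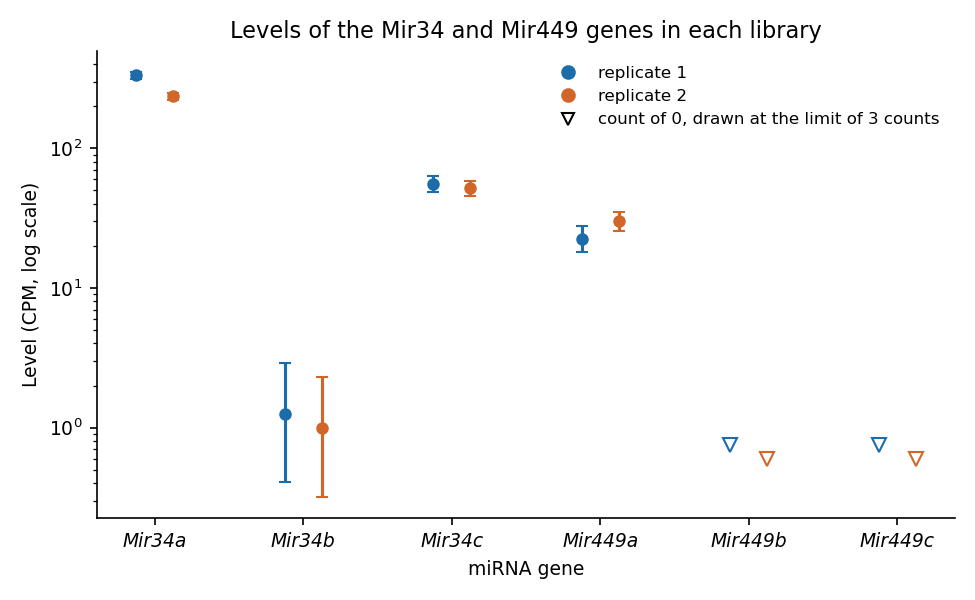
Level in CPM (log scale) of each Mir34 and Mir449 gene in replicate 1 and replicate 2. Points are single libraries, bars are exact 95% Poisson intervals, and open triangles mark counts of 0, drawn at the level of 3 counts. Mir34a stands at 333 and 236 CPM, Mir34c at 55.8 and 51.8, Mir449a at 22.5 and 30.0, and Mir34b at 1.25 and 0.988.

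**Figure D2:**
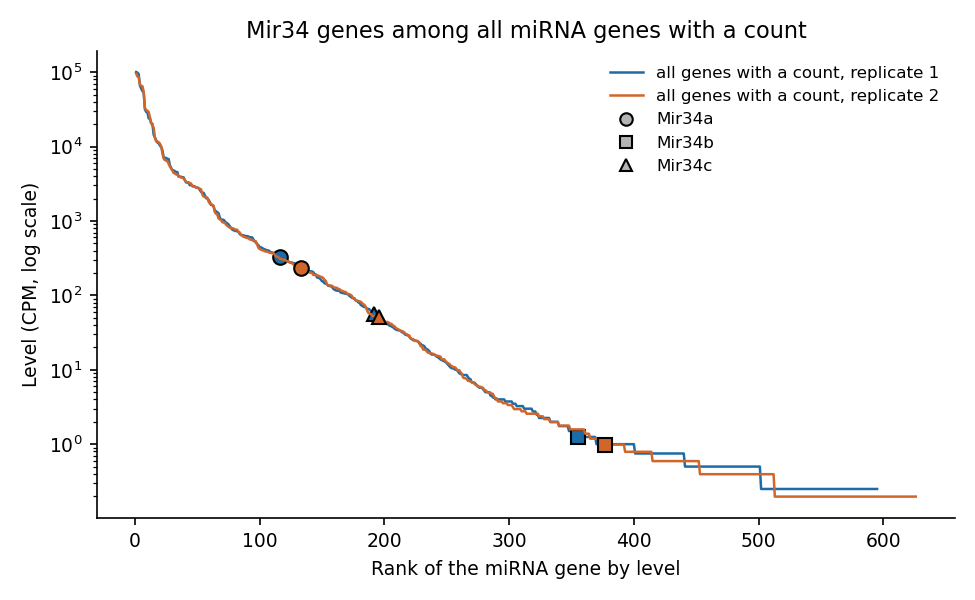
Level in CPM (log scale) against rank for every miRNA gene with a count, 1 line for each library, with the 3 Mir34 genes marked. Mir34a sits at ranks 116 and 133, Mir34c at 192 and 196, and Mir34b in the tail at 355 and 377, where single counts make steps.

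The order Mir34a, Mir34c, Mir34b was the same in both libraries, and no interval of one member overlapped that of another. Together the 3 genes took 0.0390% of the assigned counts in replicate 1 (1559 counts) and 0.0289% in replicate 2 (1463 counts). Mir34a supplied 85.4% of these counts in replicate 1 (interval 83.5 to 87.1) and 81.7% in replicate 2 (interval 79.7 to 83.7). A read of a small RNA library covers a whole mature miRNA, so counts were compared between genes without scaling by length. The same ratios per base of hairpin are given beside them. How efficiently each sequence enters a library was not measured, so these are ratios of counts and not of molecules. Mir34a had 5.97 times the counts of Mir34c in replicate 1 and 4.57 times in replicate 2, or 4.51 and 3.45 times per base of hairpin.

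Within the chromosome 9 locus, nearly all counts belonged to Mir34c although both hairpins are known to come from a common primary transcript. Mir34b held 2.19% of the counts of the pair in replicate 1 (interval 0.716 to 5.04) and 1.87% in replicate 2 (interval 0.611 to 4.32). Mir34c thus had 44.6 times the counts of Mir34b in replicate 1 (interval 18.8 to 139) and 52.4 times in replicate 2 (interval 22.2 to 163). Per base of hairpin the ratio was 48.7 and 57.2. The ratio did not differ detectably between the libraries at this depth, since the interval of its change ran from 0.267-fold to 5.17-fold. The excess of Mir34c counts has the same direction in both libraries and stands outside the counting error in each. That error does not cover unequal capture of different sequences.

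Of the Mir449 genes, which carry the same 5′ seed, Mir449a alone was counted. Mir449a (chr13:113037534-113037624, plus strand, in an intron of Cdc20b) had 90 counts in replicate 1 and 152 in replicate 2, or 22.5 and 30.0 CPM. Mir449b, 35 bases upstream, and Mir449c had 0 counts in both libraries, which allows up to 0.75 and 0.593 CPM. Mir449a thus lay below Mir34c and above Mir34b in both libraries. Mir34c had 2.48 times its counts in replicate 1 (interval 1.93 to 3.20) and 1.72 times in replicate 2 (interval 1.41 to 2.12). Counting Mir449a with the 3 Mir34 genes, the set summed to 412 CPM in replicate 1 and 319 CPM in replicate 2, a mean of 366 ± 66 CPM (SD, n = 2). Mir34a made up 80.7% and 74.1% of that set and Mir449a 5.46% and 9.41%, in replicates 1 and 2.

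The 2 libraries come from the same group, so a difference between them compares these libraries and not conditions. Ratios below are log2 ratios of replicate 2 to replicate 1 after TMM scaling, a library scaling that assumes most genes are equal, and the exact binomial test with Benjamini-Hochberg adjustment covers counting error only. Genes had to average 10 counts or more to be tested, and of the 332 that did, 39.5% passed this test in either direction, 27.1% as higher and 12.3% as lower in replicate 2. Of the 2 members tested, Mir34a passed as lower and Mir34c did not pass. Mir34b had too few counts to be tested. By a negative binomial exact test (edgeR), whose dispersion was estimated from this same pair of libraries, 1.81% of the genes passed and neither member did.

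Mir34a was lower in replicate 2 by a log2 ratio of -0.42 (interval -0.54 to -0.31), which is 1.34-fold higher in replicate 1 (exact binomial adjusted p = 1.59e-12). The edgeR negative binomial exact test gave p = 0.149 and an adjusted p of 1.0, so the difference exceeded counting error but not the spread that edgeR estimated over all genes of this pair. That spread, the biological coefficient of variation, was 0.14. Among the 332 genes, 27 had a log2 ratio as low as that of Mir34a or lower, Mir34a included. All the others of these had a mean of 25.0 CPM (Mir24-1) or less, where counting error is wider. No other gene above that level had a ratio as low. In the other direction, ratios of larger size did occur above that level. Among them were Mir499 (mean 247 CPM, log2 ratio 0.72), Mir122 (187 CPM, 1.48) and Mir451a (2736 CPM, 1.38). A difference of this size was thus not particular to Mir34a. Mir34c had a log2 ratio of -0.04 (interval -0.30 to 0.23, exact binomial adjusted p = 0.889). Mir34b gave -0.27 with an interval from -2.39 to 1.85. All 3 ratios were negative, but the intervals of Mir34b and Mir34c include 0, and the median over all genes tested was 0.02.

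Mir449a went the other way, at a log2 ratio of 0.49 (interval 0.10 to 0.88, exact binomial adjusted p = 0.0323). It did not pass with plain library totals (log2 0.42, exact binomial adjusted p = 0.0714) or with the edgeR negative binomial exact test (p = 0.165, adjusted p = 1.0). Ratios between 2 genes of 1 library do not depend on the scaling, and 5 such pairs were compared. The ratio of Mir34a to Mir34c in replicate 2 was 0.765 times that in replicate 1 (interval 0.626 to 0.934), and that of Mir34a to Mir449a was 0.532 times (interval 0.401 to 0.704). The ratio of Mir34c to Mir449a was 0.696 times (interval 0.50 to 0.965). Mir34a and Mir34c thus did not keep a fixed proportion to each other, or to Mir449a, between the libraries within counting error. These intervals are not adjusted for the 5 pairs. For Mir34a and Mir34c against Mir34b the intervals (0.206 to 3.92 and 0.267 to 5.17) include 1.

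**Figure D3:**
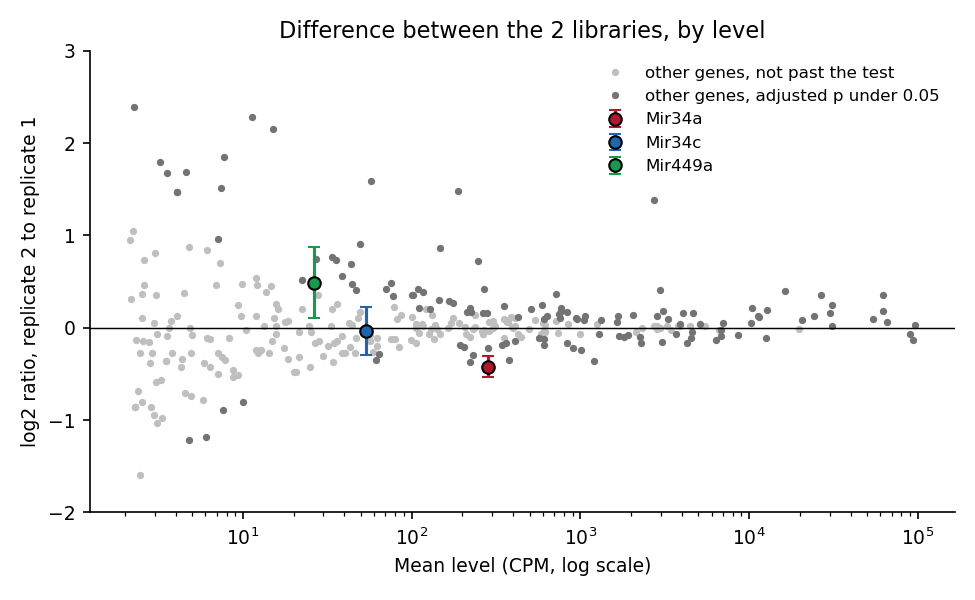
log2 ratio of replicate 2 to replicate 1 (TMM scaling) against mean level in CPM (log scale) for the 332 genes tested; bars on Mir34a, Mir34c and Mir449a are exact 95% intervals. Mir34a lies at -0.42, Mir34c at -0.04 and Mir449a at 0.49.

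Markers of other cell types also differed between the libraries, in counts to be read against the 27.1% higher and 12.3% lower of all genes tested. The erythroid Mir451a and Mir144 summed to 1680 and 4088 CPM in replicates 1 and 2, with 2 of 2 higher by the exact binomial test, and the hepatocyte miRNA Mir122 had 103 and 272 CPM. The endothelial Mir126a had 55784 and 67925 CPM, while Mir143 and Mir145a, of smooth muscle, summed to 24571 and 29712 CPM with 1 of 2 higher. The 4 leukocyte markers summed to 423 and 447 CPM, with 2 higher (Mir142, and Mir155, which did not pass with plain library totals). The 7 epithelial markers summed to 90.8 and 71.9 CPM, with 1 of the 4 tested lower. The 2 satellite cell markers, Mir31 and Mir489, summed to 24.5 and 17.8 CPM and neither passed. Of the skeletal muscle miRNAs 4 of 7 were higher in replicate 2, at log2 ratios of 0.72 (Mir499), 0.69 (Mir208b), 0.36 (Mir1a-2) and 0.17 (Mir486, not with plain library totals), while Mir206, which sets their sum, was lower at -0.13. Among all the markers named here, Mir451a and Mir122 alone also passed the edgeR negative binomial exact test (adjusted p = 0.000151 and 9.16e-05), and Mir144 gave an adjusted p of 0.181. The part of these cell types in the difference of Mir34a was not tested, and in bulk tissue fewer cells of a type and less RNA per cell cannot be told apart.

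The 3 genes nearest to it in mean log2(CPM + 1) over both libraries were Mir503 (283 ± 40 CPM), Mir18 (279 ± 11 CPM) and Mir125b-1 (286 ± 0.56 CPM). Their log2 ratios were -0.22, 0.15 and 0.07, each smaller in size than that of Mir34a, of which those of Mir503 and Mir18 passed the exact binomial test. The genes nearest to Mir34c were Mir193b (56.4 ± 5.8 CPM), Mir24-2 (56.4 ± 4.1 CPM) and Mir137 (57.1 ± 39.0 CPM). Their log2 ratios were -0.14, -0.08 and 1.59, and Mir137 passed as higher. Likeness in level over 2 libraries says nothing else about these genes.

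Other miRNAs described as raised by p53, or as matured with its help, were listed as 12 genes, of which 9 were tested. With TMM scaling 4 passed as higher, 1 as lower and 4 did not pass, against 27.1% higher and 12.3% lower of all genes tested. With plain library totals 1 passed as higher (Mir143) and 2 as lower (Mir145a and Mir205), and with the edgeR negative binomial exact test none passed, with Mir205 alone at an unadjusted p under 0.05. The median log2 ratio of the list was -0.05 against 0.02 over all genes tested. The highest level was that of Mir143, a smooth muscle miRNA, at 23930 and 29124 CPM in replicates 1 and 2 (log2 ratio 0.35). Mir145a, which neighbours it, had 641 and 589 CPM (log2 ratio -0.05, not passed; with plain library totals it passed at -0.12). Mir15a and Mir16-1, a pair known to repress cyclins and Bcl2, had 603 and 733 CPM in replicate 1 and 615 and 772 CPM in replicate 2, with log2 ratios of 0.10 and 0.15. Mir107, in an intron of the p53 target Pank1, had 258 and 273 CPM (log2 ratio 0.15), a level like that of Mir34a. Mir15a, Mir16-1 and Mir107 passed as higher with TMM scaling but not with plain library totals.

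The remaining members of that list are mainly miRNAs of epithelium, gut and kidney, and were at or under 11.3 CPM. Mir205, an epithelial miRNA, had 34 and 18 counts (8.50 and 3.56 CPM) and passed as lower, at a log2 ratio of -1.19, but not with the edgeR negative binomial exact test (p = 0.0238, adjusted p = 0.456). Mir192 and Mir194-2, which form 1 cluster, had 10.5 and 11.3 CPM in replicate 1 and 6.91 and 7.51 CPM in replicate 2, and neither passed. Mir200c had 8.75 and 7.70 CPM and did not pass. Mir215 had 2 and 3 counts, Mir141 had 5 and 0 counts, and Mir194-1 had none in either library. Mir16-1, Mir107, Mir194-1 and Mir194-2 share 22 to 24 nt of hairpin with a further miRNA gene, so reads from the shared stretch may be missing from their counts; the Mir34 genes share no more than 12 nt.

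Of 5 listed miRNAs described as repressing the p53 transcript itself, all tested, 1 passed as lower and 4 did not pass, against 12.3% lower of all genes tested, with a median log2 ratio of -0.03. With plain library totals Mir25 passed as lower too (log2 ratio -0.17), against 79 lower of all 332 genes tested with that scaling. With the edgeR negative binomial exact test none of the 5 passed and none had an unadjusted p under 0.05. Mir30d had 7060 and 6593 CPM and passed at a log2 ratio of -0.03 (exact binomial adjusted p = 0.0484). Mir125b-1 had 287 and 286 CPM, Mir125b-2 had 84.8 and 74.3 CPM, Mir25 had 236 and 210 CPM, and Mir504 had 2.00 and 3.16 CPM. The Mir125b genes share 24 nt with each other, so the same holds for them. The p53 transcript and protein were not measured in these libraries.

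**Figure D4:**
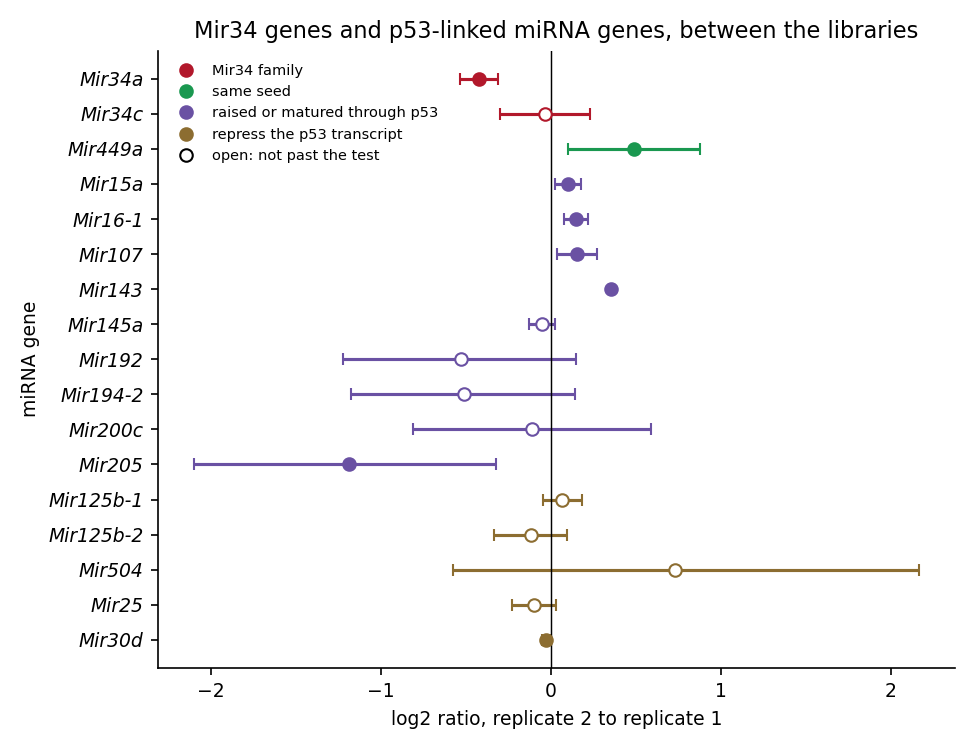
log2 ratio of replicate 2 to replicate 1 (TMM scaling) for the tested Mir34 genes, Mir449a and the 2 lists of p53-linked miRNAs; bars are exact 95% intervals, filled points passed the exact binomial test and open points did not. Mir34a lies at -0.42 and Mir205 at -1.19, while Mir449a lies at 0.49 and Mir143 at 0.35.

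On the strand opposite to the hairpins, all 3 members had 0 reads in both libraries, and the counts without regard to strand were the same as the sense counts for each. The counts do not separate the C57BL/6J and CAST/EiJ alleles of these hybrid animals, so no parental difference at the Mir34 loci was measured.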

How the data were processed

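The authors deposited raw read counts per miRNA gene for each library, against mm10 and GENCODE M21 per the metadata text deposited beside the tables. The aligner and the counter are not given in the sources used. Sense-strand counts were used. The 4 summary rows per table (unmapped, several places, no gene, several genes), which held 58.7% and 60.7% of all reads, were left out of totals. All 2202 identifiers matched M21.

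Members, lists and the naming rule (members, listed genes and the 3 genes nearest in level) were chosen with earlier results of these data known. A single group of 2 leaves no residual degrees of freedom between libraries, so counts were compared by an exact binomial test (two-sided) with TMM-scaled totals across all genes that averaged 10 counts or more, with Benjamini-Hochberg adjustment at 0.05. It was tested on simulated Poisson counts, which hold no spread between libraries beyond counting error. Alternatives were DESeq2 size factors, plain totals, the unstranded column, other minimums, all reads as denominator, hairpin length, a pseudocount of 0.5 in place of 1, and the edgeR negative binomial exact test. Software was Python 3.11.15, scipy 1.17.1, R 4.3.3, edgeR 4.0.16 and DESeq2 1.42.0.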

Additional observations from a re-analysis of the deposited data

How the results depend on the processing

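With all reads as the denominator the levels were 115 CPM for Mir34a, 0.452 for Mir34b and 21.7 for Mir34c, and the family share was 0.0137%, since that denominator holds the unassigned reads. With the unstranded column, whose assigned total is smaller, Mir34a was at 347 CPM, Mir34b at 1.37 CPM, Mir34c at 65.6 CPM and the family share at 0.0414%. Per base of hairpin the share of Mir34a in the family was 79.4%, and with Mir449a added, an alternative chosen after seeing the data, it was 77.4%. With the edgeR negative binomial exact test the log2 ratio of Mir34a stayed at -0.42 but did not pass, and 6 genes in all passed, against 131 with the exact binomial test. Plain library totals gave 62 genes higher and 79 lower, against 90 and 41 with TMM, and moved the median of the genes tested from 0.02 to -0.06. The ratio of Mir34a was then -0.49 and that of Mir34c -0.11. Without replicate 1 or replicate 2, Mir34a ranged from 236 to 333 CPM, Mir34b from 0.988 to 1.25, Mir34c from 51.8 to 55.8, and the family share from 0.0289% to 0.0390%. The share of Mir34b in its locus ranged from 1.87% to 2.19% and that of Mir34a in the family from 81.7% to 85.4%. The ratio of Mir34b could not be fitted with the minimum of 50 counts or with the negative binomial test. No paired analysis was possible because the series has a single group. Leaving out 1 of 2 replicates always moves a mean by less than the SD, so those ranges are no sign of stability. In 28 other settings these results kept their direction and call or moved by less than the SD, or by less than 1.5 times for the count of genes. Part of this was fixed in advance. For each member the unstranded counts equal the sense counts, so the shares were the same, and a minimum count cannot change a ratio. With 5 counts per library, the depth limits any statement on Mir34b to a range of several-fold.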
